A study of Mus musculus with 27 samples.

Results

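Cytochrome P450 genes were compared in the lungs of 9 inbred mouse strains. The group consisted of every measured gene whose symbol is Cyp followed directly by a digit, with entries marked as pseudogenes by the ending -ps left out, which gave 89 of the 20239 named genes on the array. The rule used names only and no measured value. Of the 89 genes, 88 are protein coding in the RefSeq annotation, and the remaining one, Cyp2d13, is not. Total RNA from the right lung of 3 females per strain, 11 weeks old, had been hybridised to Mouse Gene 1.0 ST arrays, 1 array per mouse and 27 in all. According to the labels, no mouse carried a transgene or received a treatment. Each strain is labelled by whether its spontaneous pulmonary adenomas are increased or decreased in severity and in frequency. A/J, C57BL/6J and DBA/2J are labelled increased in both. C57L/J, C3H/HeJ, 129S1/SvlmJ and BALB/cJ are labelled increased in severity and decreased in frequency, and KK/HlJ and MRL/MpJ decreased in both. These labels belong to the strain, and the tissue itself is labelled normal.

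P450 enzymes are haem proteins that insert an oxygen atom into lipophilic substrates, using electrons passed on by cytochrome P450 reductase, by cytochrome b5 or, in mitochondria, by ferredoxin. Members of the CYP1, CYP2 and CYP3 families oxidise drugs, plant compounds and combustion products, and some of these oxidations turn an inert chemical into a reactive one. CYP4 enzymes hydroxylate fatty acids and eicosanoids, and other families make or remove sterols, bile acids, steroid hormones, vitamin D and retinoic acid. In mouse lung, the club cells of the small airways are known as the richest site of P450 enzymes, and the liver holds many that the lung hardly uses.

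The members fall into 16 families, of which Cyp2 held 44 genes, Cyp4 held 17 and Cyp3 held 7. By the RefSeq gene order, 65 of the 89 lie beside at least 1 other member. Copies within these clusters can be nearly identical, such as Cyp4a12a and Cyp4a12b or the genes of the Cyp2c, Cyp2d and Cyp3a clusters, so a signal assigned to one of them may hold signal of a neighbour.

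RefSeq promoters (GRCm38.p6) were held for 67 of the 89 members, and 4 that hold a site named here are shown. Cyp1a1 and Cyp1b1 are classical targets of the aryl hydrocarbon receptor, which binds the xenobiotic response element with the core GCGTG. Cyp2c70 and Cyp3a11 are liver genes of clusters in which 1 array stood apart. They were picked because both hold CAAAGTCCA, a site of the liver factor HNF4. The 250 bases before the start of each gene are printed 5′ to 3′ on the strand of the gene, in the order Cyp1a1 (chr9:57697363-57697612, plus strand), Cyp1b1 (chr17:79715062-79715311, minus strand), Cyp2c70 (chr19:40187287-40187536, minus strand) and Cyp3a11 (chr5:145879855-145880104, minus strand). Capitals mark the core GCGTG, or its reverse complement CACGC, in the Cyp1 promoters and CAAAGTCCA in the other two.
Cyp1a1: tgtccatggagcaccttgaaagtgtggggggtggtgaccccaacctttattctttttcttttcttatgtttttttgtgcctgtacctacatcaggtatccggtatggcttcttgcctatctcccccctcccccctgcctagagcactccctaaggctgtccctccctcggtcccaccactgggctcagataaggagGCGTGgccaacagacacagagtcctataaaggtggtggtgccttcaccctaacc
Cyp1b1: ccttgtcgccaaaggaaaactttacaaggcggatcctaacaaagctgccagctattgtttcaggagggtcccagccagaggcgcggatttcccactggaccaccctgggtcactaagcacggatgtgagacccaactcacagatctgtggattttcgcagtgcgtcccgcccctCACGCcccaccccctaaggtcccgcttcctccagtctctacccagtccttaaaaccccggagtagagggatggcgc
Cyp2c70: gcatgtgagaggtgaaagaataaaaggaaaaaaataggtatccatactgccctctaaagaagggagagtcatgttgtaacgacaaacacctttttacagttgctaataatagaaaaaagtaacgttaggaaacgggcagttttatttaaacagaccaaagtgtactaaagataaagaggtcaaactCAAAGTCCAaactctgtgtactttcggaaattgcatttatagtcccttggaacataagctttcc
Cyp3a11: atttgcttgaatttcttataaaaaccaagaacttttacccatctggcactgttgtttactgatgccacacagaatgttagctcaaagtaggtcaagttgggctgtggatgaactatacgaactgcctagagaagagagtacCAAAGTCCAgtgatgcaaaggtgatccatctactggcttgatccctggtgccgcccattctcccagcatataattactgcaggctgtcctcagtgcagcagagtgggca
Searched on both strands, GCGTG was present in 16 of the 67 member promoters (23.9%) and in 28.2% of all 32851 promoters of this length. CAAAGTCCA was present in 7 of the 67 (10.4%), namely those of Cyp2c65, Cyp2c67, Cyp2c68, Cyp2c70, Cyp3a11, Cyp3a16 and Cyp8b1, and in 0.384% of all promoters. In the array that stood apart, KK/HlJ mouse 3, Cyp2c70 and Cyp3a11 exceeded the other KK/HlJ mice by 1.36 and 1.71 (log2). Cyp2c65, Cyp2c67, Cyp2c68, Cyp3a16 and Cyp8b1 differed there by -0.19 to 0.21. The promoter of Cyp2c29, the member raised most in that array (3.32), did not hold CAAAGTCCA. The letters TATAAA, the core of a TATA box, were in 24 of the 67 (35.8%) and in 12.4% of all promoters. These shares describe letters in a window and say nothing of binding, and neighbouring copies share sequence by descent.

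All signals are log2 values as deposited, so a difference of 1 is a doubling of signal. As a bound for background, the highest strain mean among 7 genes of the Y chromosome, which females lack, was 5.25 (Sry). By that bound, 22 members lay above background in all 9 strains, 10 in some strains and 57 in none. The bound is rough, since the other Y-linked genes reached no more than 3.56, and without Sry 68 members would count as above background in at least 1 strain instead of 32. The lung label held throughout, with strain means of 13.07 to 13.31 for Sftpc, the surfactant gene of alveolar type II cells, and of 12.76 to 12.95 for Scgb1a1, the main secretory protein of club cells. Array medians ran from 6.24 to 6.37. With 3 arrays for each strain, their number sets the precision of every value, and fewer cells of a type and less RNA per cell cannot be told apart in whole lung. Whether sequence differences between strains under the probes shift a signal was not tested. A strain difference given here is therefore one of signal and need not be one of RNA. The arrays are numbered strain by strain in their file names. If that is the order of running, it cannot be told apart from strain either. The labels name no batch, and in the sample order MRL/MpJ mouse 3 stands apart from its strain, after the BALB/cJ mice. In 4 arrays, genes specific to other tissues stood above the rest. KK/HlJ mouse 3 and A/J mouse 1 had the highest mean of 6 hepatocyte genes (7.27 and 6.65, against at most 6.03 elsewhere), and C3H/HeJ mouse 2 and C57L/J mouse 3 the highest mean of 5 adipocyte genes (7.78 and 7.22, against at most 6.83 elsewhere). C3H/HeJ mouse 2 also had a skeletal muscle mean of 9.45, with the next array at 5.56.

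Strain differences among the P450 genes were about as common as among all genes. With limma's moderated F test over the 9 strains, 26 of the 89 members passed at an adjusted p under 0.05 (29.2%), against 28.9% of all genes. Of the 22 members above background everywhere 15 passed, of the 10 above it in some strains 5, and of the 57 above it in none 6. The share of all genes passing at each of these levels was not computed, so the counts by level describe the members only. A stricter call, an adjusted p under 0.05 and a difference of at least 1 between 2 strains, was met in at least 1 of the 36 strain pairs by 5 members (5.62%), against 4.27% of all genes. These were Cyp1a1 and Cyp2r1 in 10 pairs each, Cyp4a12b in 9, Cyp3a13 in 4 and Cyp4f39 in 2. The median range between the lowest and the highest strain mean was 0.45 over the members and 0.34 over all genes. Without KK/HlJ mouse 1, 8 members met the pair call, the share of all genes without that mouse not being recorded.

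Cyp1a1, which oxidises polycyclic aromatic hydrocarbons from smoke and tar, had a 3.63-fold range between strains. Its signal (Entrez gene 13076) was 7.79, 8.03 and 8.45 in the 3 BALB/cJ mice and 7.62, 8.23 and 7.66 in C57BL/6J. The KK/HlJ mice were at 7.53, 7.62 and 7.56, the 129S1/SvlmJ mice at 7.73, 7.21 and 7.66 and the A/J mice at 7.69, 7.34 and 7.52. It was 6.94, 6.99 and 7.06 in C3H/HeJ, 6.97, 6.95 and 6.56 in DBA/2J and 7.08, 6.54 and 6.81 in MRL/MpJ. All these mice lay above the C57L/J mice, at 6.33, 6.04 and 6.32. The strain means thus ran from 6.23 ± 0.17 (mean ± SD, n = 3) in C57L/J to 8.09 ± 0.33 in BALB/cJ, a log2 difference of 1.86 ± 0.18 (SE) with an adjusted p of 1.85e-07. C57L/J was also at least 1 below C57BL/6J, KK/HlJ, 129S1/SvlmJ and A/J, with differences of 1.28 to 1.60. BALB/cJ was more than 1 above C3H/HeJ, DBA/2J and MRL/MpJ, with differences of 1.10 to 1.28, and C57BL/6J was 1.01 above DBA/2J and 1.03 above MRL/MpJ. BALB/cJ overlapped with C57BL/6J, which also reached down to KK/HlJ, 129S1/SvlmJ and A/J, and DBA/2J overlapped with MRL/MpJ, while every A/J mouse lay above every C3H/HeJ mouse.

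**Figure D1:**
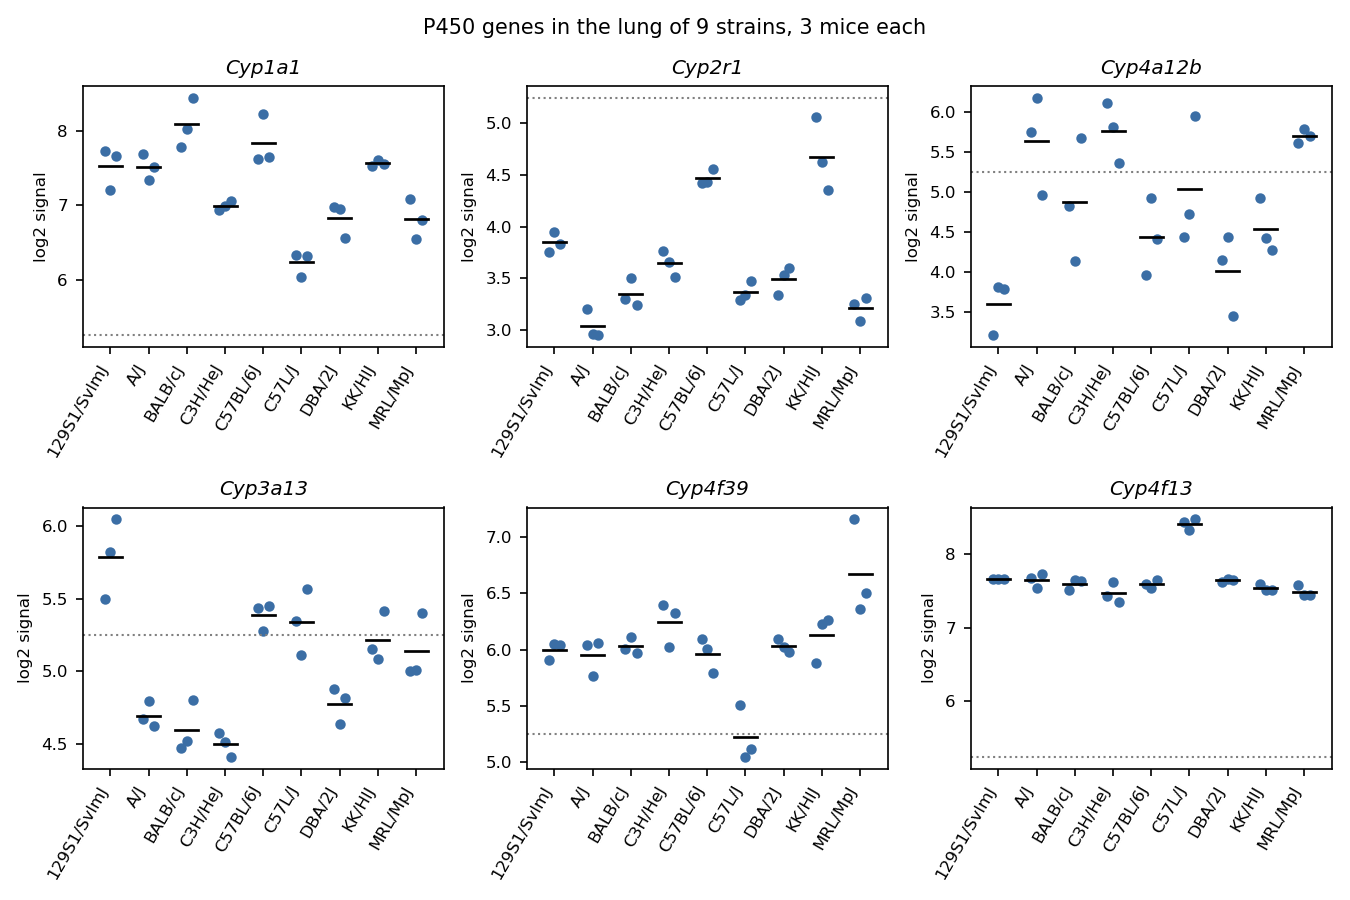
Log2 signal of 6 P450 genes (vertical axis, scale differing by panel) in 9 strains. Points are single mice, ordered 1 to 3 from left to right within a strain, bars are the means of 3 mice and the dotted line is the background bound of 5.25. The 3 C57L/J mice are lowest for Cyp1a1 and highest for Cyp4f13, and Cyp2r1 lies under the dotted line in every mouse.

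The aryl hydrocarbon receptor gene Ahr, whose protein turns Cyp1a1 on, had its extremes in the same strains. Ahr was lowest in C57L/J at 8.79, 8.87 and 8.71 and highest in BALB/cJ at 9.44, 9.56 and 9.36. Against the mean of the other 8 strains, C57L/J was -0.44 ± 0.07 (SE, adjusted p = 0.000249) and BALB/cJ 0.30 ± 0.07 (adjusted p = 0.0119) on the log2 scale. Between these extremes the orders differ, since DBA/2J and MRL/MpJ had Ahr means of 9.24 and 9.26, beside 9.0 in A/J, where Cyp1a1 was higher. Cyp1b1, the other Cyp1 gene above background, did not follow: its F test passed (adjusted p = 0.0129), but its lowest strain was KK/HlJ with 6.50 ± 0.21 and its highest DBA/2J with 7.01 ± 0.12. BALB/cJ, highest for Cyp1a1, had 6.52 ± 0.11 for Cyp1b1, and C57L/J had 6.92 ± 0.12. No strain was called against the other 8 for Cyp1b1. Cyp1a2, the liver gene beside Cyp1a1, stayed below background in all strains. Arnt, the partner of the receptor, and Ahrr, its repressor, did not pass the F test, with adjusted p of 0.777 and 0.427, and neither did its target Tiparp at 0.0943.

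Of 10 P450 genes known from lung, 9 were measured, and 7 passed the F test, beside 28.9% of all genes. All 9 but Cyp3a13 lay above background in every strain, a level at which 15 of 22 members passed. Besides Cyp1a1 and Cyp1b1, those that passed were Cyp2f2, Cyp2b10, Cyp4b1, Cyp2s1 and Cyp3a13, while Cyp2e1 and Cyp2j6 did not pass. Cyp2f2, the club cell enzyme that activates naphthalene, had a strain range of 1.27-fold. It was highest in A/J at 12.87, 13.0 and 12.90 and in DBA/2J at 12.94, 12.89 and 12.89, and lowest in KK/HlJ at 12.65, 12.58 and 12.51. KK/HlJ was -0.22 ± 0.05 (SE) against the other 8 (adjusted p = 0.00202) and A/J 0.16 ± 0.05 (adjusted p = 0.0315). The other strain means lay between 12.69 and 12.86, with no call for any of them.

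Club cell genes differed among strains as well. The mean of 10 club cell genes was lowest in KK/HlJ, at 8.99 with its arrays between 8.84 and 9.13, and highest in C57BL/6J and A/J at 9.50 and 9.49. It was 9.42 in DBA/2J and between 9.21 and 9.29 in the other 5 strains. Of the 10 genes 9 passed the F test, Scgb1a1 being the exception (adjusted p = 0.268). In KK/HlJ 3 of the 10 were lower than in the other 8 strains and 0 higher, and in BALB/cJ 4 were lower and 0 higher. Scgb3a1, a secretoglobin, was 9.06, 7.95 and 7.43 in the KK/HlJ mice and 9.98, 10.04 and 10.17 in C57BL/6J. Gabrp ran from a strain mean of 9.20 in KK/HlJ to 10.16 in A/J, Chad from 7.99 in C57BL/6J down to 6.66 in MRL/MpJ, and Scgb3a2 from 9.42 in BALB/cJ to 10.18 in MRL/MpJ. Their part in the Cyp2f2 difference was not tested.

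Cyp4b1 activates lung toxicants such as ipomeanol. Once its values were seen, the strains could be split into a high, a middle and a low set without overlap of mice. The borders were narrow, with C57L/J down to 10.99, C57BL/6J from 10.97 to 10.75 and BALB/cJ up to 10.73. The mice of 129S1/SvlmJ (11.10, 11.16 and 11.22), DBA/2J (11.09, 11.14 and 11.15), C57L/J (11.17, 10.99 and 11.23) and A/J (11.12, 11.10 and 11.05) were high. Those of BALB/cJ (10.73, 10.62 and 10.72), KK/HlJ (10.63, 10.54 and 10.60) and C3H/HeJ (10.58, 10.53 and 10.62) were low. C57BL/6J (10.97, 10.75 and 10.91) and MRL/MpJ (10.91, 10.92 and 10.86) lay between. The high and the low strains were all called against the other 8, from -0.37 ± 0.05 in C3H/HeJ (adjusted p = 4.9e-05) to 0.29 ± 0.05 in 129S1/SvlmJ (adjusted p = 0.000619). The whole range was 1.50-fold, so no pair met the call that asks for a doubling.

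Cyp2s1, an epithelial P450 found mainly outside the liver, was higher in DBA/2J (9.33 ± 0.15) and 129S1/SvlmJ (9.30 ± 0.10) and lower in MRL/MpJ (8.79 ± 0.08) and BALB/cJ (8.84 ± 0.12) than in the other 8 strains. The DBA/2J call (0.26 ± 0.07, adjusted p = 0.0308) was lost without DBA/2J mouse 1 (adjusted p = 0.353) or mouse 2 (0.0966). Cyp2b10, a drug-metabolising gene induced through the receptor CAR, ran from 10.69 ± 0.16 in BALB/cJ to 11.22 ± 0.13 in A/J. Its F test passed (adjusted p = 0.00867), with no single strain called. Cyp2j6, which acts on arachidonic acid, had strain means of 6.92 to 7.35 and an adjusted p of 0.382, and its lowest array, at 6.43, was C3H/HeJ mouse 2.

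**Figure D2:**
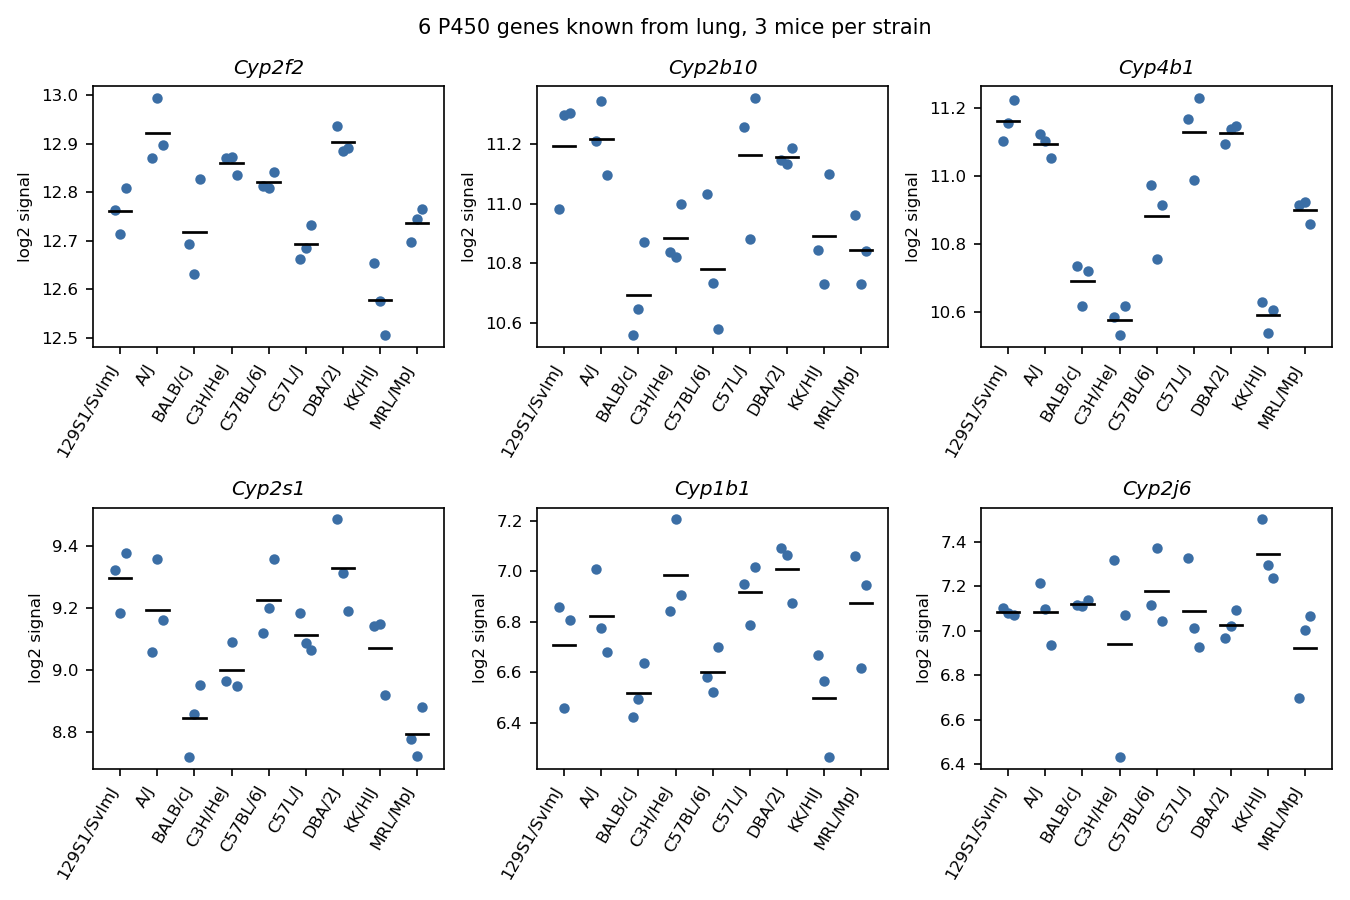
Log2 signal of 6 P450 genes known from lung (vertical axis, scale differing by panel) in 9 strains, with points for single mice, ordered 1 to 3 from left to right, and bars for means of 3. Cyp4b1 is low in BALB/cJ, C3H/HeJ and KK/HlJ with no mouse reaching the high strains, and Cyp2f2 is lowest in KK/HlJ.

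Cyp3a13 (Entrez gene 13113), a drug oxidase of the CYP3A family, had its highest level in 129S1/SvlmJ. The 129S1/SvlmJ mice were at 5.50, 5.82 and 6.04, above every other mouse except for 1 C57L/J value. C57BL/6J (5.43, 5.28 and 5.45) and C57L/J (5.35, 5.11 and 5.57) followed, then KK/HlJ (5.15, 5.09 and 5.41) and MRL/MpJ (5.0, 5.01 and 5.40). DBA/2J (4.88, 4.64 and 4.82), A/J (4.67, 4.79 and 4.62), BALB/cJ (4.47, 4.52 and 4.81) and C3H/HeJ (4.57, 4.51 and 4.41) were all below the background bound. 129S1/SvlmJ exceeded these last 4 strains by 1.01 to 1.29 on the log2 scale, the largest adjusted p of the 4 pairs being 2.38e-05. Because the low strains lie under the bound, the fold between the extremes can only be given as at least 1.45. Against the other 8, 129S1/SvlmJ was 0.83 ± 0.10 (adjusted p = 6.8e-06).

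Cyp2e1, which oxidises ethanol and small solvents, varied widely between mice of a strain. Over the 27 arrays it ran from 7.27 through a median of 7.93 to 9.97, and the F test gave an adjusted p of 0.56. The C3H/HeJ mice were at 7.76, 9.97 and 8.12, the C57L/J mice at 8.03, 7.88 and 9.66 and the A/J mice at 9.43, 7.85 and 7.66. The 129S1/SvlmJ mice were at 7.86, 8.54 and 9.05 and the BALB/cJ mice at 8.10, 8.34 and 8.64. The arrays with the 4 highest values were also the 4 with the highest mean of adipocyte genes. In 6 of 9 strains the mouse with the most Cyp2e1 had the highest adipocyte mean as well, the exceptions being C57BL/6J, KK/HlJ and MRL/MpJ. Adipoq, the adiponectin gene of fat cells, was 6.39, 8.57 and 6.75 in C3H/HeJ and 6.68, 6.11 and 8.62 in C57L/J, highest in the same mouse as Cyp2e1 in both strains. In KK/HlJ the high Cyp2e1 value, 8.58, was in mouse 3, which had the lowest Adipoq of all arrays (4.46) and the highest hepatocyte genes. Without the 4 arrays highest in hepatocyte or adipocyte genes, Cyp2e1 passed the F test (adjusted p = 0.0402), with a largest strain difference of 1.08. The part of fat or liver RNA in these values was not tested.

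**Figure D3:**
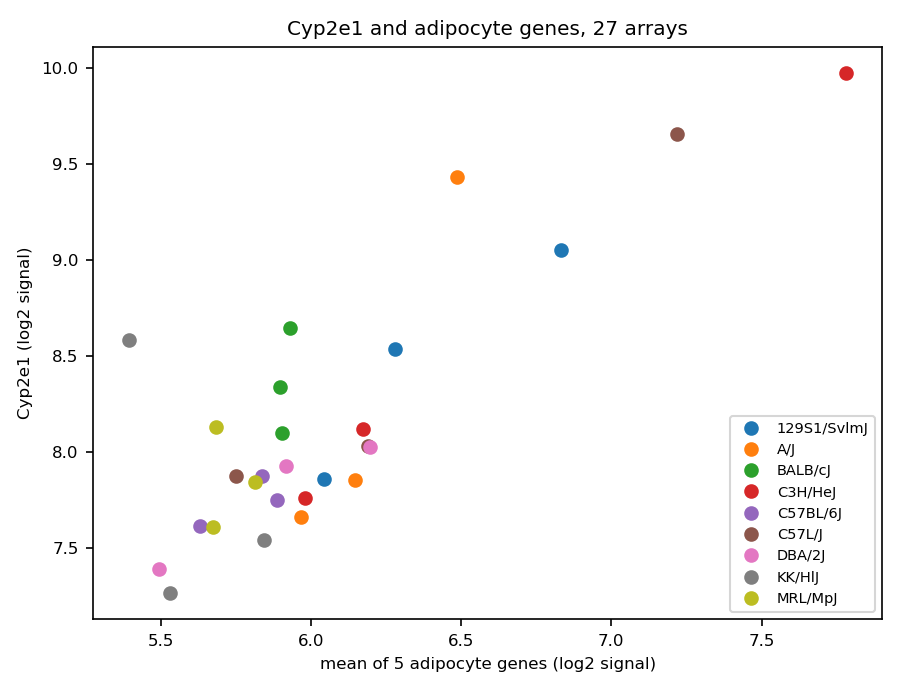
Cyp2e1 log2 signal (vertical axis) against the mean log2 signal of 5 adipocyte genes (horizontal axis) in the 27 arrays, coloured by strain. The arrays highest in both are C3H/HeJ mouse 2 and C57L/J mouse 3, at 9.97 and 9.66 for Cyp2e1, while KK/HlJ mouse 3, at 8.58, has the lowest adipocyte mean.

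Among the CYP4 fatty acid hydroxylases, 7 of 17 passed the F test, beside 28.9% of all genes, and 2 met the pair call, beside 4.27%. Cyp4f13 (Entrez gene 170716), of a family that inactivates leukotrienes, was highest in 1 strain, C57L/J. The C57L/J mice were at 8.43, 8.33 and 8.47, and the means of the other 8 strains lay between 7.47 and 7.66. C57L/J was 0.83 ± 0.05 against the other 8 (adjusted p = 1.92e-10), and C3H/HeJ and MRL/MpJ were called lower, at -0.23 ± 0.05 and -0.21 ± 0.05. In the same strain Cyp4f39 (Entrez gene 320997), a hydroxylase of very long fatty acids known from skin, was lowest at 5.51, 5.05 and 5.11, -0.91 ± 0.12 against the other 8 (adjusted p = 1.84e-05). Both genes belong to the Cyp4f cluster, and their C57L/J differences go in opposite directions.

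Cyp4f39 was highest in MRL/MpJ, at 7.16, 6.36 and 6.51, followed by C3H/HeJ at 6.40, 6.02 and 6.33. In the remaining 6 strains its means lay between 5.95 and 6.13. The pairs called were MRL/MpJ above C57L/J by 1.45 ± 0.16 (adjusted p = 1.17e-06), a 2.74-fold difference, and C3H/HeJ above C57L/J by 1.03 ± 0.16 (adjusted p = 0.000146). Since C57L/J lay just under the background bound, the first of these is at least 2.69-fold.

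Cyp4a12b (Entrez gene 13118), a fatty acid hydroxylase nearly identical to Cyp4a12a, had the widest range between strain means of the 5 genes. It was 6.11, 5.81 and 5.37 in C3H/HeJ, 5.61, 5.78 and 5.70 in MRL/MpJ and 5.76, 6.18 and 4.96 in A/J. It was 3.20, 3.81 and 3.78 in 129S1/SvlmJ, 4.15, 4.44 and 3.44 in DBA/2J, 3.96, 4.92 and 4.41 in C57BL/6J and 4.92, 4.43 and 4.27 in KK/HlJ. BALB/cJ (4.82, 4.14 and 5.68) and C57L/J (4.43, 4.72 and 5.96) spread across much of this range. The mice of a strain thus differed by up to 1.54, and A/J overlapped with strains of lower means. C3H/HeJ exceeded 129S1/SvlmJ by 2.16 ± 0.39 (adjusted p = 0.000647), a difference of signal of 4.48-fold and, with 129S1/SvlmJ under the background bound, of at least 1.43-fold. Against the other 8, 129S1/SvlmJ was called lower (-1.40 ± 0.29, adjusted p = 0.00249). C3H/HeJ (1.03 ± 0.29, adjusted p = 0.0312) and MRL/MpJ (0.96 ± 0.29, adjusted p = 0.0324) were called higher, but the first call was lost without C3H/HeJ mouse 1 (adjusted p = 0.165) or mouse 2 (0.136), or without the 4 arrays highest in hepatocyte or adipocyte genes (0.0910), and the second without any one MRL/MpJ mouse (0.0949 to 0.126).

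Other CYP4 genes showed smaller strain differences. Cyp4v3, the counterpart of a gene mutated in human retinal dystrophy, was higher in C57L/J (8.93 ± 0.11) and lower in MRL/MpJ (8.39 ± 0.02) and BALB/cJ (8.43 ± 0.10). Cyp4f18, which hydroxylates leukotriene B4 in neutrophils, was higher in C57BL/6J at 6.24, 6.02 and 6.19, 0.46 ± 0.10 against the other 8 (adjusted p = 0.00495), though its F test was lost without C57BL/6J mouse 1 (0.0936) or mouse 3 (0.0790). Cyp4f15 was higher in A/J at 7.25, 7.84 and 7.17, a call (adjusted p = 0.00444) that was lost without mouse 2 (0.173).

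Cyp2r1 (Entrez gene 244209), the main enzyme of the first step of vitamin D activation, had the smallest F test p of all members (adjusted p = 2.73e-09). It was 5.06, 4.63 and 4.35 in KK/HlJ and 4.42, 4.44 and 4.56 in C57BL/6J, above every mouse of the other 7 strains. 129S1/SvlmJ followed at 3.76, 3.95 and 3.83, and C3H/HeJ at 3.77, 3.66 and 3.51. DBA/2J (3.33, 3.53 and 3.60), C57L/J (3.29, 3.33 and 3.47) and BALB/cJ (3.30, 3.51 and 3.24) were lower, and MRL/MpJ (3.25, 3.08 and 3.30) and A/J (3.20, 2.96 and 2.95) lowest. KK/HlJ exceeded A/J by 1.64 ± 0.13 (adjusted p = 4.43e-09) and MRL/MpJ by 1.47 ± 0.13 (adjusted p = 2.72e-08). All 27 values lie under the background bound, so no fold of the RNA is given. The strain means of KK/HlJ, C57BL/6J, 129S1/SvlmJ and C3H/HeJ do lie above the highest strain mean of the Y-linked genes other than Sry (3.56). The other vitamin D genes, Cyp27b1, which makes the hormone, and Cyp24a1, which removes it, did not pass the F test (adjusted p of 0.837 and 0.131).

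Sterol and bile acid P450 genes passed in 4 of 7 cases, beside 28.9% of all genes. Cyp51, which removes a methyl group from lanosterol in cholesterol synthesis, was lower in 129S1/SvlmJ (6.53, 6.42 and 6.52) and MRL/MpJ (6.49, 6.66 and 6.67) and higher in C57BL/6J (7.17, 7.35 and 7.05). The 129S1/SvlmJ difference was -0.46 ± 0.09 against the other 8 (adjusted p = 0.00105). Cyp39a1, an oxysterol hydroxylase of bile acid synthesis, was lower in MRL/MpJ (7.99 ± 0.06, adjusted p = 0.00324) and higher in 129S1/SvlmJ (8.51 ± 0.11, adjusted p = 0.0372). Cyp27a1, the mitochondrial sterol hydroxylase, was lower in A/J (7.40 ± 0.15), and Cyp8b1, which directs bile acid synthesis to cholic acid, was higher in C3H/HeJ (5.49 ± 0.13) at signals close to the background bound. The F test of Cyp27a1 was lost without A/J mouse 2 (adjusted p = 0.0844) or mouse 3 (0.0715) or C3H/HeJ mouse 2 (0.0512). That of Cyp8b1 was lost without C3H/HeJ mouse 1 (0.0842) or mouse 2 (0.0830), without DBA/2J mouse 2 (0.0526) or mouse 3 (0.0559), without the 4 arrays highest in hepatocyte or adipocyte genes (0.120), after quantile normalization (0.162) and with array weights (0.0888). Cyp7a1, Cyp7b1 and Cyp46a1 did not pass.

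None of the 5 steroid hormone P450 genes measured (Cyp11a1, Cyp11b1, Cyp11b2, Cyp17a1 and Cyp21a1) and none of the 3 retinoic acid hydroxylases (Cyp26a1, Cyp26b1 and Cyp26c1) passed the F test. The steroid genes lay below the background bound in every strain. Cyp26b1, the retinoic acid hydroxylase above background everywhere, had strain means from 5.98 in C57L/J to 6.81 in C57BL/6J (adjusted p = 0.244). Of the remaining Cyp2 genes above background, Cyp2d22, the counterpart of human CYP2D6, was higher in MRL/MpJ at 8.97, 8.85 and 8.79 and lower in C3H/HeJ at 7.98, 8.0 and 8.01. Every MRL/MpJ mouse exceeded every other mouse, by 0.59 ± 0.07 against the other 8 (adjusted p = 5.02e-06). Cyp2j9, which acts on arachidonic acid, was higher in C57BL/6J (6.87 ± 0.04) and lower in DBA/2J (6.25 ± 0.10), but its F test was lost without any one C57BL/6J mouse (adjusted p of 0.0530 to 0.0694) and without DBA/2J mouse 1 (0.0749).

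A group of P450 genes known from liver stood out in 1 array, KK/HlJ mouse 3. Cyp2c29 was 6.78 in this mouse, 3.54 and 3.38 in the other KK/HlJ mice and at most 3.58 in any other array, an excess of 3.32 on the log2 scale over the mean of the other KK/HlJ mice. Cyp2c39 was 5.08, with the next array at 4.41 (A/J mouse 1), and Cyp3a11 was 4.98, with the next at 3.48. Cyp2c54, Cyp2c70, Cyp2j5 and Cyp2d40 exceeded the mean of the other KK/HlJ mice by 1.27 to 1.42 on the log2 scale. This array had the highest value of all 27 for 16 of the 89 members (18%) and for 2.43% of all genes, and for 7 of the 13 Cyp2c genes.

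The same array had high hepatocyte genes. Alb, the serum albumin gene, was 6.42, 4.97 and 9.84 in the 3 KK/HlJ mice, Serpina1a 3.65, 3.10 and 8.75 and Ttr 7.51 in mouse 3, with at most 5.21 in the other 26 arrays. A/J mouse 1 also had high Alb (9.72, 5.51 and 7.92 in the A/J mice) and Serpina1a (8.03, 2.55 and 2.98), but Cyp2c29 in the A/J mice was 3.43, 3.30 and 3.42 and Cyp3a11 3.19, 3.04 and 3.39. In A/J mouse 1 the P450 genes furthest above the mean of the other A/J mice were Cyp2e1, by 1.67, and Cyp2c39, by 1.23, while Cyp2c29, Cyp2c54, Cyp2c70 and Cyp2j5 differed by 0.07 to 0.30. The KK/HlJ call of Cyp2c29 against the other 8 (1.22 ± 0.36, adjusted p = 0.0353) was lost without mouse 3 (0.11, adjusted p = 0.478). The part of liver RNA in these values was not tested.

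**Figure D4:**
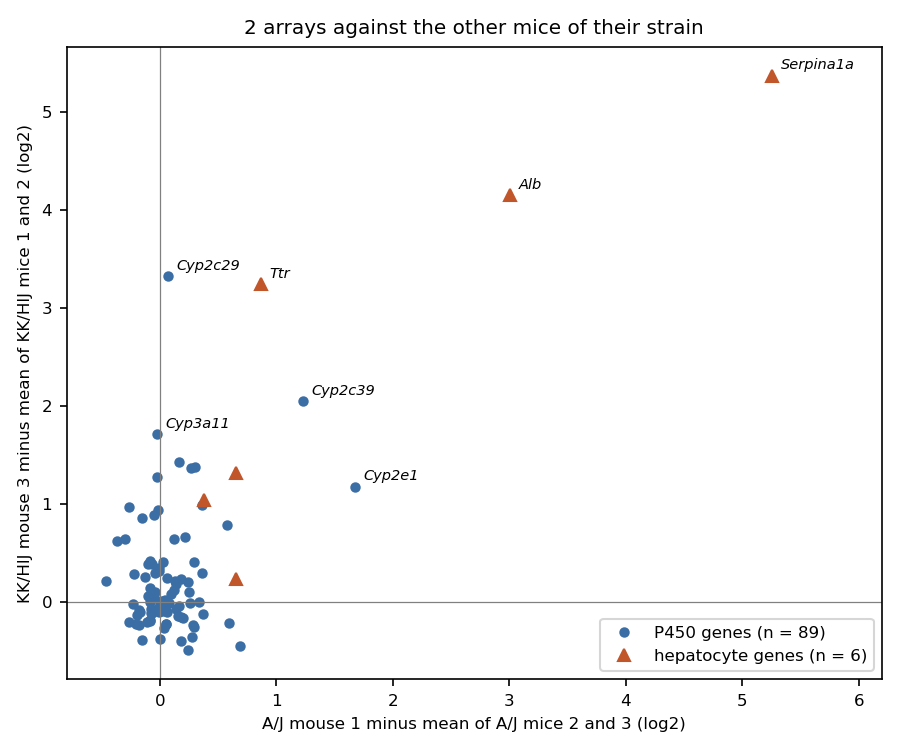
Log2 difference of KK/HlJ mouse 3 from the mean of KK/HlJ mice 1 and 2 (vertical axis) against the difference of A/J mouse 1 from the mean of A/J mice 2 and 3 (horizontal axis), for 89 P450 genes (circles) and 6 hepatocyte genes (triangles). Alb and Serpina1a are raised in both arrays, whereas Cyp2c29 is raised by 3.32 in KK/HlJ mouse 3 and by 0.07 in A/J mouse 1.

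Each strain was also set against the mean of the other 8, with calls at an adjusted p under 0.05 and no minimum difference. In 129S1/SvlmJ 4 members rose (4.49%, against 3.54% of all genes) and 2 fell (2.25%, against 6.43%), with Cyp3a13 and Cyp4a12b as the largest differences. In A/J 3 rose (3.37%, against 1.96%) and 3 fell (3.37%, against 3.75%), with Cyp4f15 and Cyp2r1 as the largest differences. BALB/cJ had 1 member higher, Cyp1a1 (1.12%, against 2.48%), and 5 lower (5.62%, against 3.01%), with Cyp3a13 the largest of these at -0.51 ± 0.10 (adjusted p = 0.00291; 0.0516 without BALB/cJ mouse 1). C3H/HeJ had 2 higher (2.25%, against 4.18%) and 4 lower (4.49%, against 3.08%), with Cyp4a12b and Cyp3a13 as the largest. In C57BL/6J 6 rose (6.74%, against 4.06%) and 3 fell (3.37%, against 4.11%), the largest rise being that of Cyp2r1 and the largest fall that of Cyp2b9, at 4.30, 4.26 and 4.26 and below background (adjusted p = 0.0469, lost without any one C57BL/6J mouse at 0.142 to 0.199). In C57L/J 3 rose (3.37%, against 3.69%) and 3 fell (3.37%, against 2.94%), with Cyp4f13 and Cyp1a1 as the largest. DBA/2J had 2 higher (2.25%, against 2.87%) and 2 lower (2.25%, against 1.94%), the largest fall being Cyp1a1 at -0.49 ± 0.13 (adjusted p = 0.0312), a call lost without any one DBA/2J mouse (0.0628 to 0.319) and without the 4 arrays highest in hepatocyte or adipocyte genes (0.0636). KK/HlJ had 4 higher (4.49%, against 4.55%) and 2 lower (2.25%, against 2.83%), Cyp2c29 and Cyp4b1 having the largest differences. MRL/MpJ had the most calls, with 9 higher (10.1%, against 6.83%) and 7 lower (7.87%, against 5.61%), Cyp4a12b and Cyp2r1 having the largest.

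Several of these counts moved when 1 mouse was left out, which also leaves its strain with fewer arrays. The 9 calls of C57BL/6J became 2, 3 and 4 without its mouse 1, 2 or 3, and the 4 of DBA/2J became 2, 1 and 2. The 6 of A/J became 3 without mouse 1 and 1 without mouse 2, the 6 of BALB/cJ became 2 without mouse 1, and the 16 of MRL/MpJ became 7 without mouse 3. The 6 of KK/HlJ became 12 without mouse 1. The share of all genes called without these mice was not recorded, so the changes describe the members only.

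Genes that serve P450 enzymes were tested in the same fit, in which 28.9% of all genes passed. Of 9 measured electron donor and haem genes 5 passed the F test, with no strain pair called. Alas1, the first enzyme of haem synthesis, was higher in A/J (10.86, 11.15 and 10.88, adjusted p = 0.000645) and lower in MRL/MpJ (10.36, 10.47 and 10.41, adjusted p = 0.00511). The cytochrome b5 genes Cyb5a and Cyb5b had their lowest strain means in MRL/MpJ, at 10.18 and 9.10, and their highest in 129S1/SvlmJ (10.73) and C57BL/6J (9.51). Hmox1, which breaks haem down, was highest in KK/HlJ at 8.03 and lowest in 129S1/SvlmJ at 7.52. Of 18 measured regulators of P450 genes 5 passed, close to the share over all genes. After Ahr these were Rarb, the sterol-sensing receptor Nr1h3, the bile acid receptor Nr1h4 and Vdr, the vitamin D receptor. Rarb, a retinoic acid receptor, ran from 6.75 in BALB/cJ to 7.56 in DBA/2J. Nr1h4 lay below the background bound in every strain, as did the drug-sensing receptors Nr1i2 and Nr1i3, which did not pass, nor did Hnf4a. Both P450 enzymes known under other symbols passed: Tbxas1, thromboxane synthase, ran from 6.49 in BALB/cJ to 7.01 in DBA/2J, and Ptgis, prostacyclin synthase, from 7.89 in C57BL/6J to 8.27 in BALB/cJ.

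Enzymes acting beside or after P450s were measured too. Of the 11 genes of epoxide and aldehyde clearance 6 passed. Aldh3a1, an aldehyde dehydrogenase, was 7.85, 8.05 and 7.72 in A/J and 6.37, 6.64 and 6.04 in KK/HlJ, a 2.87-fold range in which A/J and KK/HlJ were also the extremes of Cyp2f2. Nqo1, a quinone reductase, ran from 5.57 in MRL/MpJ to 6.37 in DBA/2J, Ephx3 from 5.06 in C57BL/6J to 5.82 in C57L/J, and Aldh1a1 from 11.91 in MRL/MpJ to 12.28 in 129S1/SvlmJ. Of the 4 measured flavin monooxygenases, the other main oxidases of lung, 3 passed. Fmo1 and Fmo2 were lowest in C57L/J, the strain with the least Cyp1a1. Fmo4, which also passed, was lowest in MRL/MpJ (5.34), and Fmo5, which did not, in 129S1/SvlmJ (7.61). In C57L/J Fmo1 was 10.91, 10.97 and 11.05, -0.67 ± 0.05 against the other 8 (adjusted p = 1.09e-08).

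Marker genes of other cell types give the background for whole lung. The F test was passed by 6 of 8 alveolar type II genes, 4 of 5 alveolar type I genes, 5 of 6 genes of ciliated cells and 2 of 5 endothelial genes. It was passed by 1 of 6 hepatocyte genes (Apob) and by none of 5 adipocyte genes, 6 skeletal muscle genes, 4 adrenal and gonadal genes and 7 Y-linked genes. The strain mean of Alb ran from 5.08 to 7.72, but its arrays from 4.97 to 9.84.

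No P450 gene was called between the adenoma classes when the strain was taken as the unit. In severity, 7 strains labelled increased were compared with KK/HlJ and MRL/MpJ, and limma on the 9 strain means called 0 members at an adjusted p under 0.05, with 0.00988% of all genes called. In frequency, A/J, C57BL/6J and DBA/2J against the other 6 strains gave 0 members and 0% of all genes. For the strains increased in both against those decreased in both, 0 members and 0.00494% of all genes were called. The smallest adjusted p of a member was 0.230, 0.647 and 0.404 in these 3 comparisons, which share strains.

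At an unadjusted p under 0.05, more members were lower than higher in the increased classes. In severity 18 members were lower and 1 higher, with 5.03% of all genes lower and 2.01% higher. In frequency 8 were lower and 4 higher, with 6.11% and 1.59% of all genes, and in both 18 were lower and 3 higher, with 6.77% and 1.85%. The members at this level made up 21.3%, 13.5% and 23.6% of the 89. The median difference in severity was -0.08 over the members and -0.03 over all genes.

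These lower members were mostly dim. Of the 64 members with a mean at or under the background bound, 17 were lower in severity (26.6%) and 0 higher, against 7.99% lower among the 6825 dim genes as a whole, and their median difference was -0.11 against -0.05. Of the 25 brighter members 1 was lower and 1 higher, with a median of 0.08. In frequency 8 of the 64 dim members were lower (12.5%), close to the 10.2% of all dim genes, and in both 17 were (26.6%), beside 11.5%. The array KK/HlJ mouse 3 is in the smaller class, and the 4 arrays with the highest hepatocyte means include 3 of its 6, KK/HlJ mouse 3 and MRL/MpJ mice 2 and 3. Without KK/HlJ mouse 3 the 18 lower members in severity became 12, and without the 4 arrays highest in hepatocyte or adipocyte genes 11. With each array centred on its median they were 12, and after quantile normalization 13. Leaving out single arrays gave 12 to 24 in severity, the highest without MRL/MpJ mouse 2 (24) and KK/HlJ mouse 1 (23). In frequency the 8 lower members became 3 after quantile normalization, 13 without BALB/cJ mouse 3 and 5 without BALB/cJ mouse 2 or C3H/HeJ mouse 1, and in the comparison of both the 18 became 8 after quantile normalization. The share of all genes under these alternatives was not recorded. The part of liver RNA in this pattern was not tested.

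The genes with the smallest unadjusted p in severity were Cyp2c50, Cyp2c67 and Cyp2j5 on the lower side. Cyp2c50 had strain means of 3.02 to 3.18 in the 7 increased strains and of 3.45 and 3.58 in the decreased ones, a difference of -0.40 ± 0.06 (adjusted p = 0.230). The 3 KK/HlJ mice were at 3.20, 3.30 and 4.24 and the MRL/MpJ mice at 3.16, 3.27 and 3.91. Thus 1 mouse of each strain was high, and the others lay between 3.16 and 3.30. Cyp2c67 differed by -0.40 ± 0.07 (adjusted p = 0.336) and Cyp2j5 by -0.32 ± 0.06 (adjusted p = 0.389), both under background.

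On the higher side were Cyp39a1, Cyp2f2 and Cyp2e1. Cyp39a1 had strain means of 8.20 to 8.51 in the increased strains and 7.99 and 8.12 in the decreased ones, a difference of 0.31 ± 0.08 (unadjusted p = 0.00353 and adjusted p = 0.578 in limma). Cyp2f2 differed by 0.15 ± 0.08 and Cyp2e1 by 0.43 ± 0.22, with overlapping strains. The 4 arrays highest in Cyp2e1, which are also the 4 highest in adipocyte genes, all belong to increased strains. Without the 4 arrays highest in hepatocyte or adipocyte genes, which include 3 of these, the Cyp2e1 difference was 0.37 (adjusted p = 0.687).

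In frequency, Cyp4f15 (0.36 ± 0.13), Cyp4f18 (0.26 ± 0.10) and Cyp2f2 (0.16 ± 0.06) had the smallest unadjusted p on the higher side, all with overlapping strain means. Cyp2f2 lay between 12.82 and 12.92 in the 3 increased strains and between 12.58 and 12.86 in the other 6. Cyp2d11, Cyp2g1 and Cyp4a10 led the lower side, by -0.27 ± 0.07, -0.21 ± 0.06 and -0.16 ± 0.06, all with an adjusted p of 0.647 and under background.

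Between the strains increased in both and those decreased in both, Cyp39a1 (0.34 ± 0.09), Cyp2f2 (0.23 ± 0.08) and Cyp2s1 (0.32 ± 0.13) were higher without overlap, with adjusted p of 0.510, 0.529 and 0.557. Strain means that were all higher without overlap were found for 6 members (6.74%), beside 6.92% of all genes, and all lower for 29 (32.6%), beside 20.1%. Cyp2c50, Cyp4a32 and Cyp2c67 were lower, by -0.40 ± 0.08, -0.55 ± 0.11 and -0.41 ± 0.09. In Cyp4a32 the MRL/MpJ mice were at 3.03, 2.82 and 4.04, and the third of them was the highest.

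When MRL/MpJ was left out, KK/HlJ alone formed the decreased class, and Cyp2c29 (-1.24, adjusted p = 0.00229) and Cyp2c70 (-0.50, adjusted p = 0.0265) were called in severity. Both calls then rest on a strain mean that includes KK/HlJ mouse 3. With the 27 arrays counted as independent, which ignores that mice of a strain share their label, 4 members were called in severity and 5 in the comparison of both, with Cyp39a1, Cyp2ab1 and Cyp2c67 called in each. The share of all genes called under these alternatives was not recorded, so the member calls cannot be set beside it.

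**Figure D5:**
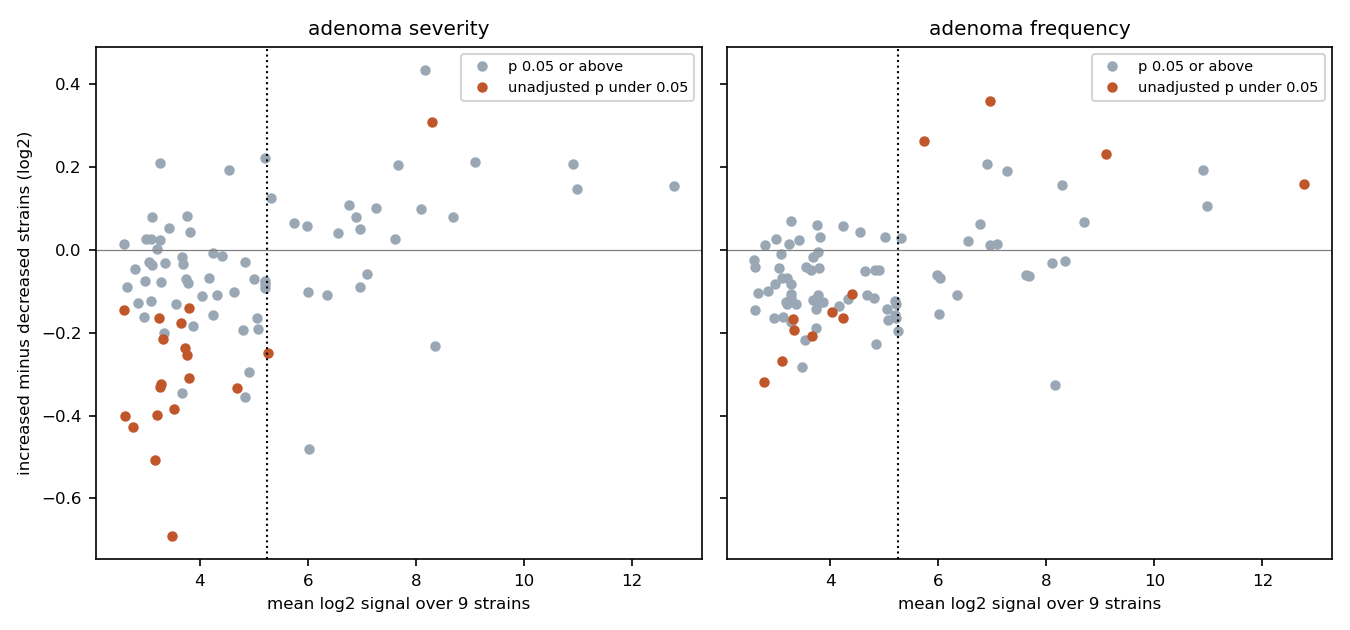
Difference in strain means between increased and decreased classes (log2, vertical axis) against the mean log2 signal over 9 strains (horizontal axis) for the 89 P450 genes, for adenoma severity and frequency. Orange points have an unadjusted p under 0.05 and the dotted line is the background bound of 5.25. In severity, 17 of the 18 lower orange points lie at or left of the dotted line, and no point passed after adjustment.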

How the data were processed

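Whole right lungs of 27 female mice were measured, 3 in each of 9 strains, with 1 array per mouse. The deposited values are log2 probe set signals that the authors computed from the arrays. The package affy is named, without a version, per the submitters' processing notes, and how the arrays were normalized was not given in the sources used here. Array medians are nearly equal. Each probe set stands for 1 Entrez gene, and a platform table named 20239 of the 21225. All deposited log2 values were used as they are. limma 3.58.1 in R 4.3.3 was fitted on all named genes over the 27 arrays, with a moderated F test over strains, 36 strain pairs (adjusted p under 0.05 and a log2 difference of at least 1) and each strain against the mean of the other 8. Adenoma classes were compared on the 9 strain means, since the class belongs to the strain. All p-values were adjusted by the Benjamini-Hochberg method over all named genes. The test code was checked on simulated data.

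The P450 genes, the 20 gene lists (142 entries, of which 133 were measured) and the comparisons were chosen with earlier results of these data known. Named with values were members called in a strain pair, the members with the largest called rise and fall per strain, up to 3 per direction and class comparison with the smallest unadjusted p, lung P450 genes, and up to 4 genes per other list with the smallest F test p. Other members given with values were chosen after their values were seen. Alternatives covered normalization, scaling, dim genes, the variance prior, array weights, thresholds, the unit of the class test and left-out arrays or strains. Mice of a strain are separate animals per the labels. The labels do not say that replicate numbers pair mice. The mean correlation of deviations was 8.67e-05 for mice of the same number, with single pairs from -0.27 to 0.28, and 2.04e-05 for others. A mean over all strains cannot show pairing among only some of them.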

Additional observations from a re-analysis of the deposited data

Results flagged for a closer look

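Within the classes of 4, 6 or 7 strains, the mean of 1 strain lay far from the others in 6 of the 105 sets of strain means examined for the named genes. Genes were named partly because strains differed in them, and the sets share strains, so no chance rate can be set beside this count. Among the 7 strains with increased severity, Cyp4f39 was lowest in C57L/J, with a mean of 5.22 against 5.95 to 6.25 in the other 6. Cyp4f13 was highest in C57L/J, with a mean of 8.41 against 7.47 to 7.66, both among the strains with increased severity and among the 6 with decreased frequency. Among the strains with decreased frequency, Cyp2c29 was highest in KK/HlJ, with a mean of 4.57 against 3.22 to 3.48, and this mean includes mouse 3 with its value of 6.78. Cyp2ab1 was highest in KK/HlJ as well, with a mean of 5.13 against 4.55 to 4.76. Cyp4a32 was highest in MRL/MpJ, with a mean of 3.29 against 2.69 to 2.91, and its value in MRL/MpJ mouse 3 was 4.04. Reasons for these values were not tested.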

How the results depend on the processing

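Alternatives were computed for 64 results on single P450 genes, the F tests and the named strain and class differences, of which 17 lost their call and 8 gained one under at least 1 alternative. None of the named strain and class differences changed sign. The largest strain pair difference, recomputed beside each F test, has no sign and could not. Further calls of members outside these 64 moved with the counts given here. The calls lost most often were those of Cyp2b9 in C57BL/6J and of Cyp2d13 and Cyp2b9 over all strains. For the counts of called members that follow, the share of all genes called was not recorded, so they describe the members only. Quantile normalization gave 10 called members for KK/HlJ and 10 for MRL/MpJ, where the text has 6 and 16. Leaving out dim genes, which removes members from the test, gave 16 for the F test, 2 for strain pairs, 4 for C57BL/6J and 9 for MRL/MpJ. Array weights gave 14 for C57BL/6J and 7 for DBA/2J. A minimum difference of 0.5 gave 24 members in strain pairs and one of 2 gave 1. With a minimum of 0.5 for a strain against the other 8, the counts were 6 for MRL/MpJ, 3 for C57L/J, 0 for DBA/2J and 2 for each of the other 6 strains. Without the 4 arrays highest in hepatocyte or adipocyte genes, an alternative chosen after seeing the data, A/J had 3. With arrays taken as independent, severity had 4 called members and the comparison of both 5, the share of all genes not being recorded. Without Sry, 68 members were above background in at least 1 strain, and with olfactory receptor genes as the bound 36.

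Leaving out 1 array at a time gave 5 to 8 members in strain pairs and 20 to 27 for the F test, again with no share of all genes recorded. For single strains it gave 4 to 6 in 129S1/SvlmJ, 1 to 7 in A/J, 4 to 7 in C3H/HeJ, 2 to 9 in C57BL/6J and 2 to 7 in BALB/cJ. It gave 4 to 7 in C57L/J, 1 to 5 in DBA/2J, 6 to 12 in KK/HlJ and 7 to 18 in MRL/MpJ. Leaving out arrays or strains gave 0 to 2 in severity, 0 in frequency and 0 to 1 in both. Members lower in severity at an unadjusted p under 0.05 fell from 18 to 13 after quantile normalization, and those in frequency from 8 to 3. With the replicate number as a block, 24 members passed the F test, 5 were called in strain pairs and 16 in MRL/MpJ, and no count moved by over 1.5 times.

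The number of arrays, 3 per strain, and the 9 strains of the class comparisons limit every test, and 57 members lay under the background bound in all strains, where a difference in signal gives no fold of RNA. KK/HlJ and MRL/MpJ alone carry the label of decreased severity. The effect of strain sequence differences under the probes was not tested for any gene. The labels name no batch. If the numbering of the arrays in their file names is the order of running, that order cannot be told apart from strain.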
